A study of Glycine max with 10 samples.

Results

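A set of 175 probe sets held a steady level in the soybean shoot apical meristem (SAM) through 4 short days (SDs) and stood lower after 6 SDs. They were chosen by their values on the same arrays, from 37593 soybean probe sets on the Affymetrix Soybean GeneChip. A probe set, a group of short probes for 1 transcript, was taken as a member if both arrays at 0 SD were at 7 or more on the log2 scale and the means at 1, 2 and 4 SD each lay within 0.5 of the mean at 0 SD. The mean at 6 SD had to be at least 0.8 below that at 4 SD, with both 6 SD arrays below all 8 earlier arrays. Of the 37593, 20051 met the minimum at 0 SD, 17859 of these were also level to 4 SD, 323 of these were also lower by 0.8 or more, and 175 met the whole rule. The shape of the profile and the size of the difference at 6 SD are therefore a description, and no test is given for them.

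RNA came from microdissected SAMs of the soybean cultivar Bragg at 0, 1, 2, 4 and 6 SDs, with 2 arrays (replicates A and B) per time point from independent tissue collections. At 0 SD the plants had grown for 10 days in the glasshouse, under long days. For the later time points they were moved to a chamber with 10 h of light at 24°C. The tissue was the SAM alone up to 4 SD. At 6 SD it held an inflorescence meristem and a neighbouring floral meristem. The 6 SD arrays thus differ from the others in the tissue dissected, in plant age and in the number of SDs, which cannot be told apart. No array came from plants kept in long days to the age of the 6 SD plants.

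The SAM is a small dome of dividing cells that makes leaves during vegetative growth. In soybean, a plant that flowers in short days, a signal from the leaves turns it into an inflorescence meristem, on whose flanks floral meristems form. Genes of leaf initiation, of hormone response and of boundaries between organs are known to be active in parts of the dome or its flanks, so that a level in the whole dissected tissue is an average over them. In such bulk tissue, fewer cells that hold a transcript and less of it per cell cannot be told apart.

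The median of the 175 members on the log2 scale was 8.60 and 8.34 at 0 SD (replicates A and B, in this order throughout), 8.34 and 8.48 at 1 SD, 8.48 and 8.15 at 2 SD, 8.55 and 8.26 at 4 SD, and 7.76 and 7.16 at 6 SD. The medians of the first 8 arrays lay between 8.15 and 8.60, and those of both 6 SD arrays stood below them, as the rule implies. The median difference of 6 SD minus 4 SD was −0.92 on the log2 scale, a ratio of 1.90 between 4 SD and 6 SD, whereas the median of all 20366 tested probe sets was −0.11. The members ranged from a ratio of 1.74 to 3.22, and 56 of the 175 were lower by 1 log2 unit or more. The differences were thus moderate in size, and 74 members lay within 0.1 of the limit of the rule.

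**Figure D1:**
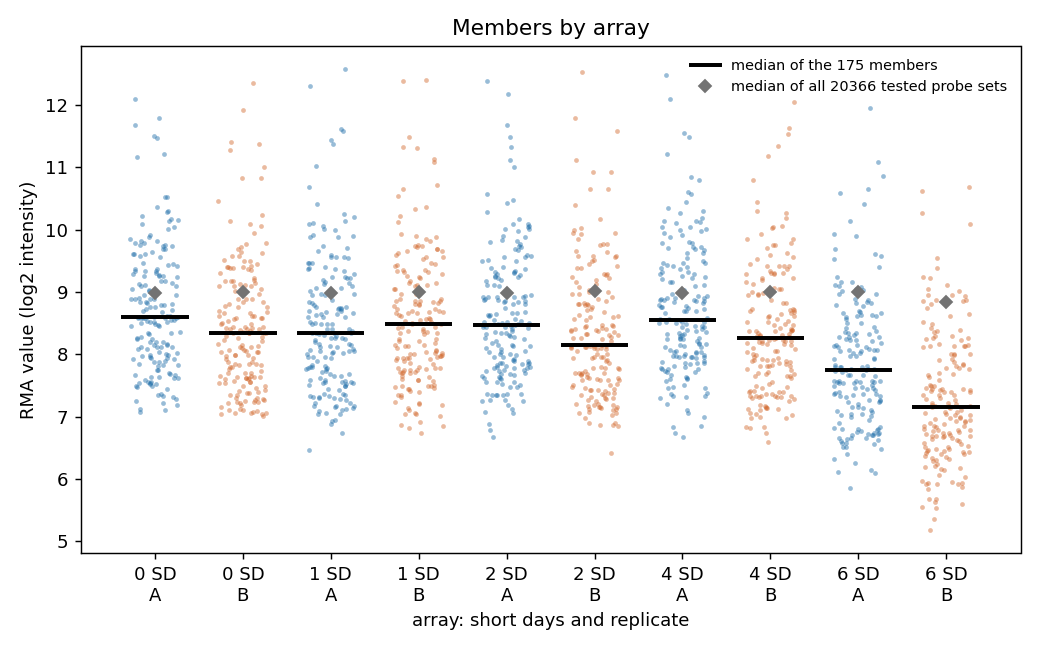
RMA values (log2 intensity) of the 175 members on each of the 10 arrays, by short days and replicate; each point is 1 probe set, the black bar the median of the members and the grey diamond the median of all 20366 tested probe sets. The member median lies between 8.15 and 8.60 on the 8 arrays of 0 to 4 SD and at 7.76 and 7.16 on the 6 SD arrays, while the median of all tested probe sets is 8.99 and 8.84 on the 6 SD arrays.

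The array of 6 SD replicate B had a lower median and a narrower range than the other 9. Its median over all soybean probe sets was 7.31, against 7.41 to 7.46 on the others, and its interquartile range was 3.60, against 3.94 to 4.02. Replicate B was lower than replicate A at 6 SD in 163 of the 175 members, with a median difference of −0.57, and in 68.0% of all tested probe sets, with a median of −0.16. The members were also low on replicate A, but by less. Replicate A at 6 SD lay a median of 0.26 below the lowest of the 8 earlier arrays, and replicate B a median of 0.86 below it. In 38 members this gap was under 0.1 on replicate A, and in 35 it was 0.5 or more, against 153 on replicate B. Replicate A alone was at least 0.8 below the mean at 4 SD in 49 members, and replicate B alone in 170.

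The rule was sensitive to single arrays. With 6 SD replicate B left out, 78 probe sets met it, of which 49 were among the 175. With 6 SD replicate A left out, 1340 met it, with 170 of the 175 among them. Leaving out 4 SD replicate A gave 93 (71 shared), and leaving out 4 SD replicate B gave 264 (151 shared). Shifting all arrays to a common median, which removes the low median of 6 SD replicate B, gave 114 (109 shared).

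**Figure D2:**
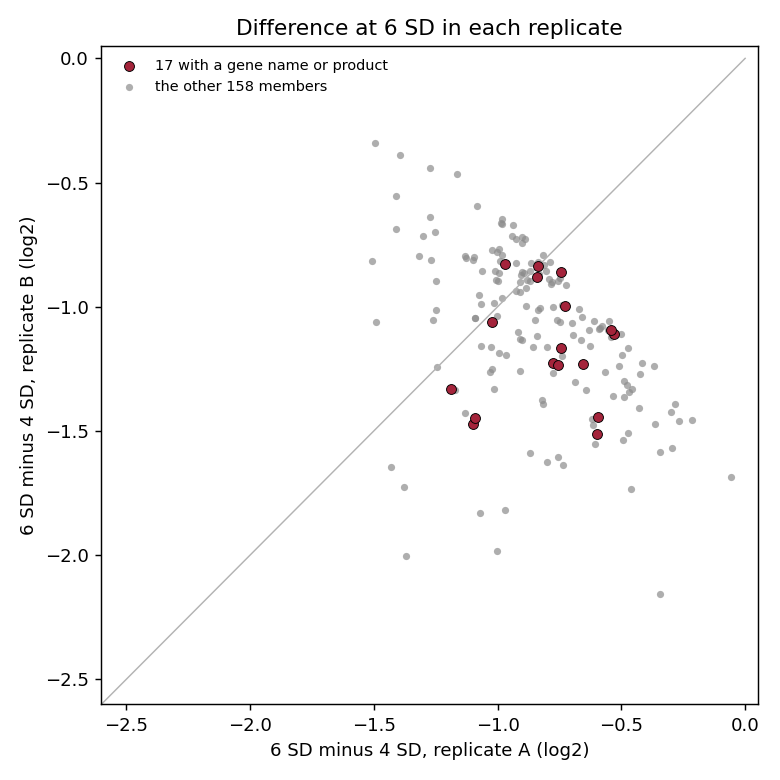
Difference of 6 SD minus 4 SD (log2) of each member in replicate A (x axis) and replicate B (y axis), with the 17 members that have a gene name or described product in red and the other 158 in grey; the line marks equal differences. As the rule requires, all points lie below 0 on both axes, with a median of −0.86 in replicate A and −1.06 in replicate B.

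With limma, which shares the estimate of the spread between probe sets, 16 of 20366 tested probe sets fell (0.0786%) and 84 rose (0.412%) at 6 SD against 4 SD at an adjusted p under 0.05. Without adjustment, 2159 were lower and 1195 were higher at p under 0.05. Against the mean of 0, 1, 2 and 4 SD, 529 fell (2.60%) and 766 rose (3.76%). Of the 175 members, 167 were bright enough to be tested, and 8 of them were among the 16 that fell and 85 among the 529. The rule used these contrasts, so nothing is read from these counts.

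Few of the members could be named. Of the 175, 38 had any annotation in the sources used here, and 137 had none. A gene symbol of the platform was given for 13.7% of the members and for 24.1% of all soybean probe sets, in both cases counting probe sets with several genes. A gene name or a described product stood for 17 members. Another 5 were listed by the study as transcripts without a match in protein databases. The study's own list of transcripts with changed profiles held 16 of the members, and as it was drawn up on these arrays, their place in it is not independent of the values given here. The levels below are per probe set and are not compared between genes, since probes differ in brightness.

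**Figure D3:**
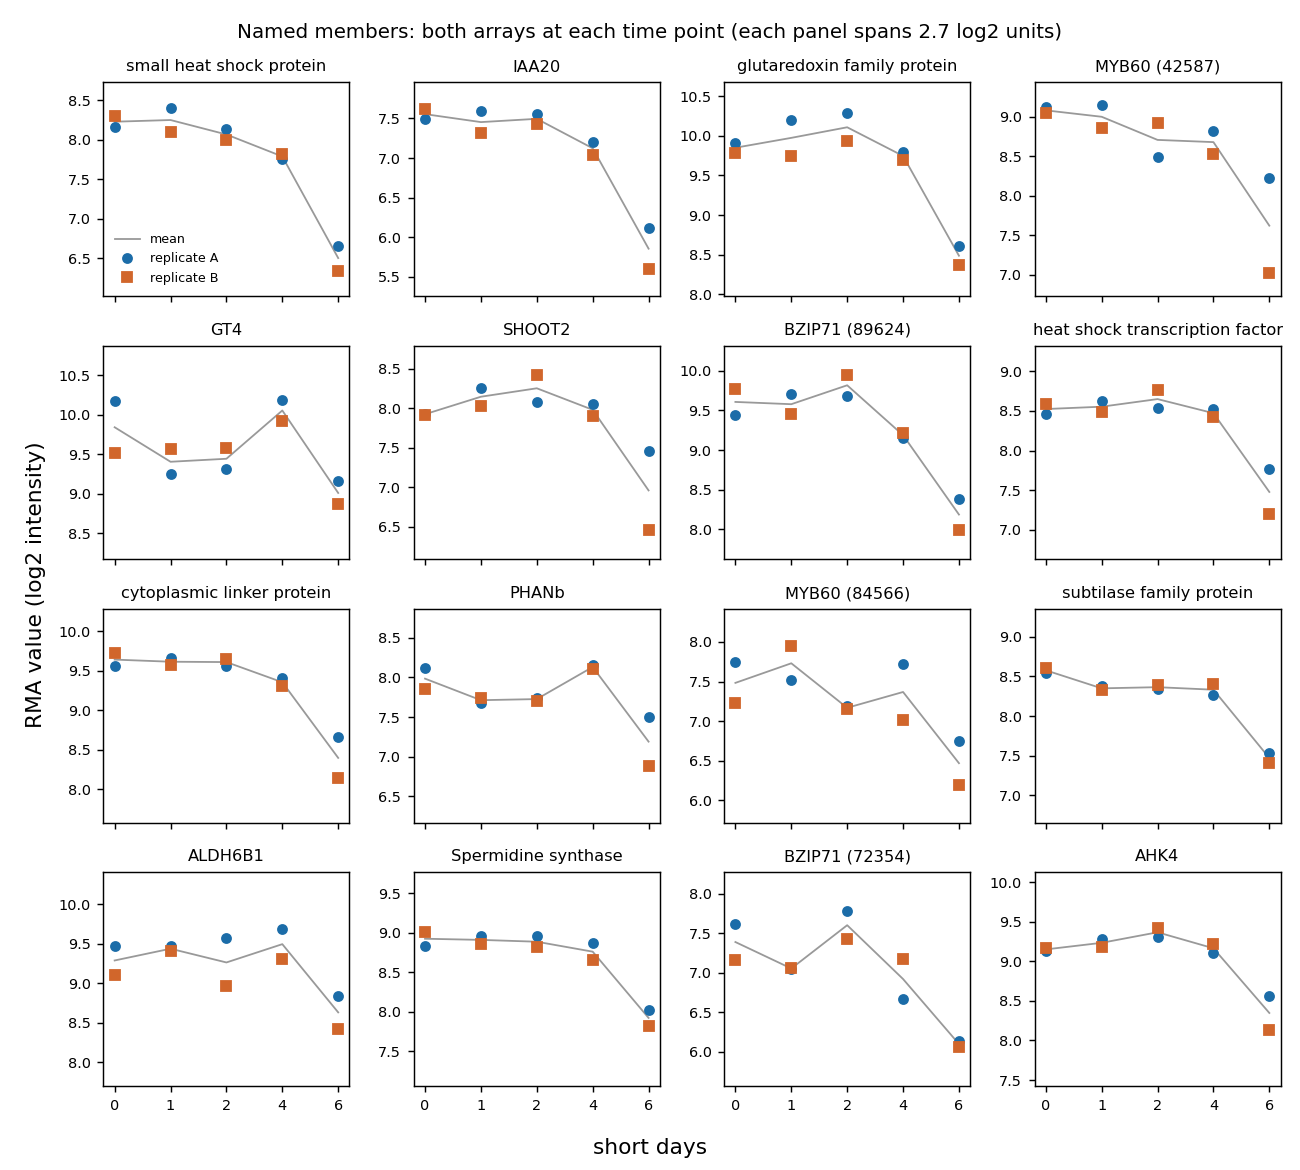
RMA values (log2 intensity, y axis) by number of short days (x axis) of 16 of the 17 named members, with both replicates and their mean; each panel spans 2.7 log2 units around its own level. In each panel both 6 SD arrays lie below the 8 earlier ones, and in MYB60 (42587) and SHOOT2 they lie 1 log2 unit or more apart.

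Among genes of hormone response, the auxin-responsive transcript IAA20 (Gma.10239.1.S1_at) had one of the larger differences. Aux/IAA proteins repress the transcription of auxin-responsive genes. Its values were 7.49 and 7.62 at 0 SD, 7.60 and 7.31 at 1 SD, 7.56 and 7.43 at 2 SD, 7.20 and 7.04 at 4 SD, and 6.11 and 5.60 at 6 SD, a difference of −1.27 between 6 and 4 SD. Both 4 SD arrays were already below the 6 earlier ones, within the window of the rule. A second probe set of the same design cluster, Gma.10239.2.A1_at, too dim to be tested and without a protein match, read 5.54 and 5.40 at 6 SD, against 6.73 and 6.41 at 4 SD.

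The list of auxin genes held 8 tested probe sets, all from the study's list, of which IAA20 was the only member. At 6 SD against 4 SD, 1 of the 8 fell (IAA20 itself) and 2 rose, beside 0.0786% and 0.412% of all tested. Against the mean of the earlier time points 3 fell, IAA20 among them, and 5 rose, beside 2.60% and 3.76%. The rule had required the low 6 SD values of IAA20, and the study's list was drawn up on these arrays. Nothing is therefore read from these counts. ARF10 (GmaAffx.92867.1.S1_at), an auxin response factor, came close to the rule. It was level at 7.70 and 7.71 at 0 SD, 7.70 and 7.90 at 1 SD, 7.69 and 7.57 at 2 SD and 7.62 and 7.23 at 4 SD, and read 6.91 and 6.72 at 6 SD. Both 6 SD arrays were lowest, but the difference to 4 SD of −0.61 was under the limit of 0.8. It fell against the mean of the earlier time points (−0.83, limma adjusted p = 0.0102). An auxin-responsive IAA4 transcript (Gma.13060.1.S1_x_at) was among the risers, at 8.20 and 8.04 at 6 SD, against 6.52 and 6.56 at 4 SD (1.58 higher on the log2 scale, limma adjusted p = 0.00845). Another auxin-responsive transcript, GmaAffx.75503.1.S1_at, was lower by more than IAA20 but already read 8.44 and 7.88 at 4 SD, against 9.27 and 8.66 at 0 SD, and so lay outside the rule.

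The transcript of the cytokinin receptor AHK4 (Gma.1584.1.S1_at), a membrane histidine kinase in Arabidopsis, was level at 9.13 and 9.17 at 0 SD, 9.28 and 9.18 at 1 SD, 9.31 and 9.42 at 2 SD and 9.11 and 9.22 at 4 SD, and read 8.56 and 8.13 at 6 SD. The difference of 6 SD minus 4 SD was −0.82, close to the limit of the rule, and the first 8 arrays spanned 0.32. The cytokinin list held 2 tested probe sets, both from the study's list. The other was a cytokinin oxidase (CKX5, Gma.12318.1.S1_at), an enzyme that breaks cytokinins down, which rose to 9.36 and 10.42 at 6 SD, against 7.38 and 7.85 at 4 SD (2.28 higher, limma adjusted p = 0.0428).

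A bZIP factor gave 2 members, both assigned to the gene BZIP71, which the study annotates as an ABA-responsive element-binding protein, one of a family that activates genes in response to abscisic acid (ABA). GmaAffx.89624.1.A1_s_at read 9.44 and 9.77 at 0 SD, 9.70 and 9.46 at 1 SD, 9.69 and 9.95 at 2 SD, 9.16 and 9.22 at 4 SD, and 8.38 and 7.99 at 6 SD, a difference of −1.003. GmaAffx.72354.1.S1_at read 7.62 and 7.16 at 0 SD, 6.67 and 7.17 at 4 SD and 6.14 and 6.06 at 6 SD, a difference of −0.82. The rule requires of each member both this direction and that both 6 SD arrays be lowest, so nothing is read from their likeness. In GmaAffx.89624.1.A1_s_at both 4 SD arrays were already below all arrays of 0 to 2 SD, within the window of the rule. GmaAffx.72354.1.S1_at was 1.14 lower at 6 SD than the mean of 0, 1, 2 and 4 SD, more than against 4 SD alone.

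The ABA list also held 2 probe sets of the gene BZIP1, which were already higher at 4 SD than before. GmaAffx.32011.1.S1_at read 8.50 and 10.34 at 4 SD, and 11.42 and 11.14 at 6 SD. GmaAffx.32011.2.S1_at read 6.30 and 8.12 at 4 SD, and 9.55 and 9.64 at 6 SD. Neither was called at 6 SD against 4 SD (limma adjusted p = 0.156 and 0.0854). Both were higher than the mean of 0, 1, 2 and 4 SD, by 3.91 and 3.52 (limma adjusted p = 0.00187 and 0.0025). Of the 4 tested probe sets of the ABA list, 1 fell and 3 rose against the mean of 0, 1, 2 and 4 SD. Of all tested probe sets, 2.60% fell and 3.76% rose against it. The 1 that fell was the member GmaAffx.89624.1.A1_s_at, whose low 6 SD values the rule had required. All 5 probe sets of the list, tested or not, came from the study's list.

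Among other transcription factors, MYB60, a MYB-type factor, was represented by 2 members. GmaAffx.42587.1.A1_at read 9.12 and 9.04 at 0 SD, 9.14 and 8.85 at 1 SD, 8.49 and 8.92 at 2 SD, 8.82 and 8.53 at 4 SD, and 8.22 and 7.02 at 6 SD. Its 6 SD replicates differed by more than 1 log2 unit, and replicate A alone was 0.27 below the lowest earlier array. GmaAffx.84566.1.S1_x_at, whose suffix marks probes that may bind related transcripts, read 6.74 and 6.19 at 6 SD, against 7.72 and 7.02 at 4 SD, a difference of −0.90.

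A member matched to PHANb, a MYB-type factor related to Phantastica of snapdragon and Asymmetric leaves of Arabidopsis, which act in leaf formation, gave a less clear picture. GmaAffx.83684.2.S1_at read 8.12 and 7.85 at 0 SD, 7.68 and 7.74 at 1 SD, 7.75 and 7.71 at 2 SD, 8.16 and 8.11 at 4 SD and 7.50 and 6.87 at 6 SD. The difference to 4 SD was −0.94, but replicate A lay 0.18 below the lowest earlier array. A brighter probe set of the same gene, GmaAffx.12439.1.S1_at, read 8.62 and 8.96 at 6 SD, against 8.94 and 9.12 at 4 SD, a difference of −0.24 (limma adjusted p = 0.476). Its replicate A at 6 SD lay 0.25 below the lowest earlier array, and its replicate B lay among the earlier arrays. A dim probe set of the member's design cluster, GmaAffx.83684.1.S1_at, read 6.38 and 6.19 at 6 SD, against 7.23 and 6.96 at 4 SD. That was a difference of −0.81, with 6 SD replicate A among the earlier arrays.

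A heat shock transcription factor (Gma.8466.1.S1_at, LOC100782841), matched by the study to the Arabidopsis locus known as Schizoriza, a factor known from the patterning of root tissues, stayed between 8.43 and 8.76 on the 8 arrays of 0 to 4 SD. At 6 SD it read 7.76 and 7.19, a difference of −0.995 to 4 SD. A small heat shock protein (GmaAffx.87467.1.S1_at), of a class of chaperones that hold unfolded proteins, had the largest difference among the named members. It read 8.16 and 8.30 at 0 SD, 8.40 and 8.09 at 1 SD, 8.13 and 8.001 at 2 SD, 7.76 and 7.82 at 4 SD, and 6.66 and 6.35 at 6 SD, a difference of −1.28. As for IAA20, both 4 SD arrays were already below all arrays of 0 to 2 SD, within the window of the rule.

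The list of heat shock and chaperone genes held 18 tested probe sets including these 2. At 6 SD against 4 SD 1 of the 18 fell, the small heat shock protein above, and 1 rose. Against the earlier mean 3 fell and 2 rose, beside 2.60% that fell and 3.76% that rose of all tested. Both members were among the 3 that fell, and the rule had required their low 6 SD values, so nothing is read from this count. The other that fell was HSP90A1 (GmaAffx.21211.1.S1_at, limma adjusted p = 0.0484). The study's list supplied 4 of the 36 probe sets of this list, tested or not. The riser at 6 against 4 SD was another heat shock factor (GmaAffx.86285.1.S1_at), at 7.79 and 7.48 at 6 SD, against 6.30 and 6.52 at 4 SD (limma adjusted p = 0.0265). The median difference over the 18 was −0.15, beside −0.11 over all tested probe sets.

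A glutaredoxin (GmaAffx.20514.1.A1_at), matched by the study to a ROXY gene of Arabidopsis, of a group that acts in flower development, read 9.91 and 9.79 at 0 SD, 10.20 and 9.75 at 1 SD, 10.28 and 9.93 at 2 SD, 9.79 and 9.70 at 4 SD and 8.60 and 8.37 at 6 SD. The difference of 6 SD minus 4 SD was −1.26, and the replicates at 6 SD were close. A different glutaredoxin transcript, Gma.3776.1.S1_at, rose at 6 SD (1.59 higher than at 4 SD, limma adjusted p = 0.0424). In the list of defence and detoxification genes, to which glutaredoxins were assigned by their annotation, 1 of 33 tested probe sets fell and 2 rose against 4 SD, and 9 fell and 6 rose against the earlier mean. Of all tested probe sets, 0.0786% fell and 0.412% rose against 4 SD, and 2.60% fell and 3.76% rose against the earlier mean. The list of defence and detoxification genes held 1 member, the ROXY-matched glutaredoxin, whose low 6 SD values the rule had required. Of its 58 probe sets, tested or not, 17 came from the study's list. Its counts are thus not independent of these arrays.

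Some other named members were enzymes, with differences of −0.86 for a subtilase and −0.84 for a spermidine synthase. A subtilase, one of a family of plant proteases, read 7.54 and 7.40 at 6 SD, against 8.27 and 8.40 at 4 SD (GmaAffx.24468.1.A1_at). A spermidine synthase, of polyamine synthesis, read 8.03 and 7.82 at 6 SD, against 8.87 and 8.65 at 4 SD (GmaAffx.87908.1.S1_at). Both had been level before, with all 8 earlier arrays between 8.27 and 8.61 for the subtilase and between 8.65 and 9.01 for the spermidine synthase.

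ALDH6B1, an aldehyde dehydrogenase (GmaAffx.90721.1.S1_at), was more variable between replicates, at 8.84 and 8.43 at 6 SD, against 9.68 and 9.31 at 4 SD. The anthocyanidin synthase ANS2 (Gma.1163.1.S1_at), an enzyme of the anthocyanin pathway, was the member nearest to the limit, with a difference of −0.80. It was too dim to be tested, at 6.10 and 5.88 at 6 SD, against 6.85 and 6.74 at 4 SD.

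The named members without a described role here were a transcript related to a cytoplasmic linker protein (GmaAffx.29336.1.S1_at), GT4 (GmaAffx.17260.1.A1_at) and SHOOT2 (Gma.8446.1.S1_at). The linker-related transcript read 8.66 and 8.14 at 6 SD, against 9.40 and 9.31 at 4 SD. SHOOT2 read 7.46 and 6.46 at 6 SD, against 8.06 and 7.90 at 4 SD. GT4 was not flat in detail, with 10.17 and 9.51 at 0 SD, 9.25 and 9.57 at 1 SD, 9.31 and 9.57 at 2 SD, 10.18 and 9.93 at 4 SD and 9.16 and 8.87 at 6 SD. Its replicate A at 6 SD was 0.09 below that at 1 SD, and the difference of 6 SD minus 4 SD was −1.04.

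A transcript that the study calls an expressed protein (GmaAffx.88342.1.S1_at) was matched by it to a Light-dependent short hypocotyls gene of Arabidopsis, of a family with members expressed at organ boundaries. It read 8.58 and 8.39 at 0 SD, 8.64 and 8.67 at 1 SD, 8.41 and 8.26 at 2 SD, 8.26 and 7.85 at 4 SD, and 7.13 and 6.43 at 6 SD, a difference of −1.28. A dim probe set of its design cluster, GmaAffx.88342.3.S1_at, read 5.06 and 4.93 at 6 SD, against 6.88 and 6.47 at 4 SD.

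The largest differences of all belonged to probe sets without a usable name, which are given here because of their size. GmaAffx.23059.1.S1_at, at the top, read 8.18 and 6.69 at 6 SD, against 9.55 and 8.69 at 4 SD, a difference of −1.69 with the 6 SD replicates 1.49 apart. GmaAffx.78770.1.S1_at (−1.55), GmaAffx.83292.2.S1_at (−1.54) and GmaAffx.83675.1.S1_at (−1.45) followed, also without annotation. Gma.1089.1.S1_s_at (−1.49) is assigned to 2 genes and is not named. It was the widest apart but one of all members at 6 SD, at 11.09 and 9.54, whereas Gma.13685.1.A1_at (−1.39) read 8.49 and 7.63.

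The spread between the 6 SD replicates varied widely among members. GmaAffx.54192.1.S1_at was the extreme, at 7.32 and 5.18 at 6 SD, against 7.66 and 7.34 at 4 SD, so that its difference rested on replicate B. The 3 members with the closest 6 SD arrays were GmaAffx.83292.2.S1_s_at (7.35 and 7.35), Gma.2865.1.S1_at (9.11 and 9.12) and GmaAffx.304.1.S1_at (7.66 and 7.67). In the last, the 4 SD arrays were close as well, at 8.50 and 8.49.

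Members just inside the limit of 0.8 were ANS2, GmaAffx.55701.1.S1_at and GmaAffx.47815.1.A1_at, with differences of −0.801, −0.803 and −0.803. Just outside lay GmaAffx.81306.1.S1_at, GmaAffx.26272.1.S1_at and GmaAffx.2947.1.A1_s_at, lower by 0.798, 0.795 and 0.794. The differences ran on at this edge without a gap. In all, 2504 probe sets met every part of the rule but the size of the difference, and 2679 with the members included.

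Other probes for the same genes were a measure that the rule had not used, although on the same arrays. Some of them are of the same design cluster as the member and can share sequence with it. The annotation gave 13 further probe sets for genes of the members, of 9 genes, and 11 of them were tested. All 13 were lower at 6 SD than at 4 SD, by 0.17 to 1.69, with a median difference of −0.39, beside 13283 of the 20366 tested that were lower. None fell at 6 SD against 4 SD at an adjusted p under 0.05 by limma, and 8 of the 11 were lower at an unadjusted p under 0.05, beside 2159 of the 20366. Against the mean of the earlier time points 4 of the 11 fell, beside 2.60% of all tested probe sets. In 6 of the 13, both 6 SD arrays were below all earlier arrays, as in 13.3% of all tested and 10.3% of all soybean probe sets.

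The smallest adjusted p was that of LOC100799747, whose other probe set (Gma.5533.1.S1_at) the study annotates as pyruvate kinase, an enzyme of glycolysis. It read 9.01 and 8.84 at 6 SD, against 9.58 and 9.50 at 4 SD, and was 0.77 lower than the mean of the earlier time points (limma adjusted p = 0.00505). The member of that gene, GmaAffx.92647.1.S1_s_at, read 7.67 and 7.05 at 6 SD, against 8.69 and 8.38 at 4 SD. For LOC100786799, 2 further probe sets fell against that mean, by 0.66 (GmaAffx.90542.1.S1_s_at, limma adjusted p = 0.0316) and by 0.42 (Gma.2087.1.S1_at, limma adjusted p = 0.0386), and Gma.1126.1.S1_s_at of LOC100527507 fell by 0.75 (limma adjusted p = 0.0373).

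For MYB60, GmaAffx.84566.1.S1_at read 6.88 and 5.31 at 6 SD, against 7.57 and 6.92 at 4 SD, while a further dim probe set, GmaAffx.84566.1.S1_s_at, was 0.31 lower. Of the GT4 probe sets, GmaAffx.76769.1.S1_at showed the largest difference of all 13, at 6.96 and 6.09 at 6 SD, against 8.47 and 7.95 at 4 SD, but its 0 SD replicates were 8.05 and 7.02, and its 6 SD replicate A overlapped the earlier arrays. At the other end were the 2 further probe sets of LOC100812323, lower by 0.22 (Gma.12486.1.S1_at) and 0.17 (GmaAffx.90981.1.S1_s_at), and the brighter PHANb probe set above (GmaAffx.12439.1.S1_at). The size of the difference thus varied between probe sets of 1 gene.

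As the annotation was sparse, probe sets of the same design cluster of the array, which share the first number of their name, were compared as well. There were 50 such probe sets beside the members, of which 26 were bright enough to be tested. Their median difference was −0.44, and 21 of the 50 (42.0%) were lower by 0.5 or more, against 10.7% of all tested and 8.10% of all soybean probe sets. Both 6 SD arrays were lowest in 23 of the 50, against 13.3% of all tested. By limma none of the 26 fell against 4 SD and 5 fell against the earlier mean at an adjusted p under 0.05, and 14 were lower than at 4 SD at an unadjusted p under 0.05, again beside 2159 of the 20366. Some of the same-gene probe sets above, among them GmaAffx.84566.1.S1_at and Gma.2087.1.S1_at, are counted again among the 50. Probe sets of 1 cluster can share sequence, so these are not independent transcripts.

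**Figure D4:**
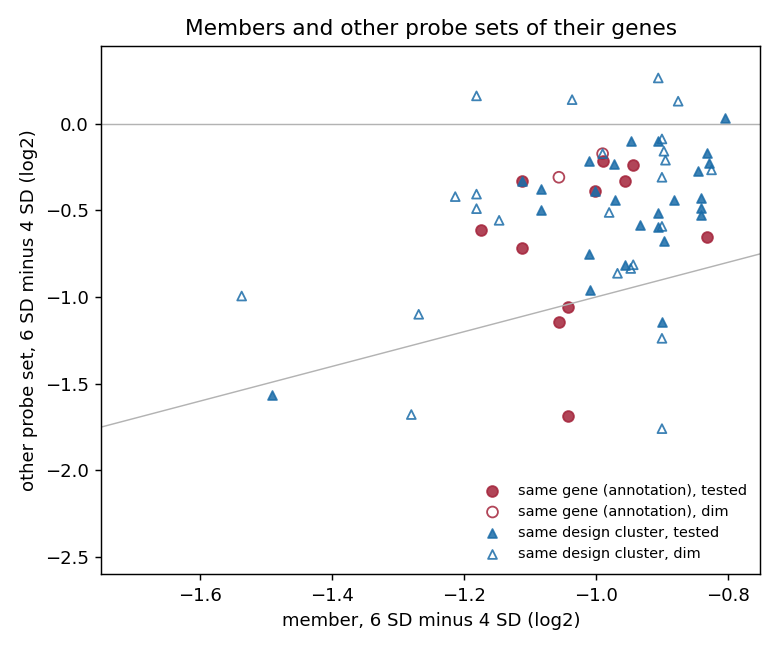
Difference of 6 SD minus 4 SD (log2) of 13 other probe sets assigned to the same gene as a member (circles) and of 50 in the same design cluster (triangles), on the y axis, against that of the member on the x axis; open symbols were too dim to be tested and the sloping line marks equality. The same-gene probe sets all lie below 0, between −0.17 and −1.69, and most symbols lie above the line of equality. Probe sets in both groups are drawn with both symbols.

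The members also shared a pattern between replicates that the rule had not asked for. In 95 of the 175 (54.3%), replicate A was higher than replicate B at 0, 2 and 4 SD and lower at 1 SD. This order of the replicates held in 16.9% of the tested probe sets, in 2 of the 145 probe sets that rose only at 6 SD by the mirrored rule, and in 11.1% of the 2504 that met the rule but for the size of the difference. The median of A minus B over the members was 0.26 (0 SD), −0.08 (1 SD), 0.36 (2 SD), 0.35 (4 SD) and 0.57 (6 SD), while over all tested probe sets it stayed between −0.04 and 0.16.

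The pattern was uneven over the members. It was present in 85 of the 137 members with no annotation (62.0%), in 10 of the 38 with any, and in 1 of the 16 on the study's list. By probe set name, it was present in 89 of the 147 GmaAffx members and in 6 of the 28 Gma members. These shares were not compared with those of all tested probe sets of the same kinds, so they may not be particular to the members. The median difference of 6 SD minus 4 SD was −0.92 both in the 95 and in the 80 others. Within the 95 it was −0.93 in replicate A and −0.96 in replicate B, and within the 80 it was −0.75 in replicate A and −1.18 in replicate B.

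A measure of RNA quality moved in the same order. The 5′ control probe set of actin minus the 3′ one was −1.004 and −1.52 at 0 SD, −1.26 and −1.08 at 1 SD, −1.22 and −1.64 at 2 SD, −0.89 and −1.14 at 4 SD, and −1.33 and −1.44 at 6 SD. Replicate A was thus higher at 0, 2 and 4 SD and lower at 1 SD, as in the 95 members. Both 6 SD arrays were lower than 6 of the 8 earlier arrays. The other 2 of them, replicates B of 0 and 2 SD, were lower still. With the actin measure as a covariate, the median difference of the members was −0.65 against 4 SD and −0.76 against the mean of the earlier time points, compared with −0.92 for both without it. In that limma fit no probe set fell or rose against 4 SD at an adjusted p under 0.05, with 1672 lower and 1011 higher at an unadjusted p under 0.05. The covariate was chosen after this pattern had been seen.

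**Figure D5:**
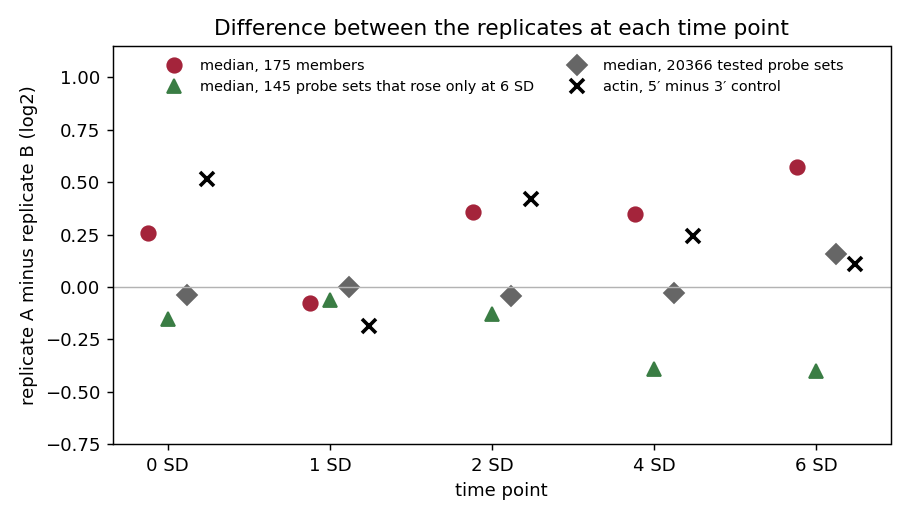
Replicate A minus replicate B (log2, y axis) at each time point (x axis), as the median over the 175 members, over the 145 probe sets that rose only at 6 SD and over all 20366 tested probe sets, and for the 5′ minus 3′ actin control. Members and actin control are above 0 at 0, 2, 4 and 6 SD and below 0 at 1 SD, whereas the median of all tested probe sets lies between −0.04 and 0.16.

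In the make-up of the array, GmaAffx probe sets accounted for 84.0% of the members, against 48.8% of all tested and 60.3% of all soybean probe sets. Probe sets named as antisense to their source sequence made up 10.9% of the members and 17.0% of the tested. Those that can bind several transcripts (suffix s or x) made up 9.71% of the members and 13.9% of the tested. The 175 members came from 174 design clusters, so that only 1 pair shared one.

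Markers of other cell types were examined because the dissected tissue differed at 6 SD. All marker probe sets found came from the study's list of transcripts with changed profiles, so their directions are not independent of it. The floral meristem list (Apetala, Fruitfull, Sepallata and related MADS-box genes) held 8 probe sets, whose mean level was 9.76 and 9.84 at 6 SD, against 6.83 and 8.001 at 4 SD and 4.62 to 5.16 before. All 7 tested rose against the mean of the earlier time points. The 4 meristem markers (Shoot meristemless and other KNOX genes) averaged 10.57 on both 6 SD arrays, against 9.70 and 10.06 at 4 SD, and all 4 rose against the earlier mean. Their mean was 9.16 or more on every array.

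The leaf mesophyll list held 1 probe set, a chlorophyll-binding protein at 8.14 and 8.68 at 6 SD, against 7.78 and 8.02 at 4 SD, and the epidermis list 2, with a mean of 10.16 and 9.81 at 6 SD, against 8.94 and 9.25 at 4 SD. No probe set was found for the xylem and phloem list. None of the marker probe sets was among the members, and the part of these shifts in the lower levels of the members was not tested.

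Of the 17 lists of pathways, 16 matched a probe set and 5 held a member: auxin, cytokinin, ABA, heat shock, and defence and detoxification. The 12 others, among them flowering and phase change, leaf and organ growth, gibberellin, cell wall, and sugar and starch, matched no member. The lists were not complete and did not include PHANb or ANS2, for instance. They reached 136 of the 20366 tested probe sets and 6 of the 175 members, and left most of the set undescribed.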

How the data were processed

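The table deposited by the authors gives log2 intensities made with Robust Multiarray Averaging (RMA: background correction, quantile normalization between arrays and a summary per probe set) from 10 arrays, 2 per time point. Versions are not given in the sources used here. RMA brings arrays to common quantiles, but 6 SD replicate B kept a lower median. The number of arrays limits the precision.

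Tests covered the 20366 of 37593 soybean probe sets above the soybean median of the array on at least 2 arrays. In limma 3.58.1 (R 4.3.3) 1 mean was fitted per time point over all 10 arrays, leaving 5 residual degrees of freedom, with Benjamini-Hochberg adjustment over the 20366. With 1 array of a time point left out, the lone array was assumed to vary like the others. The steps were tested on simulated arrays.

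The members and lists were chosen with earlier results of these data known. Names came from the platform annotation (1 symbol for 8677 soybean probe sets, several for 370 and none for 28546), updated through RefSeq, and from the study's list of 331 transcripts. Named genes are the 15 largest differences with a name or product, members of the gene lists and of the study's list, those at the limit of the rule, those with the smallest and largest spread at 6 SD, and other probe sets of the members' genes. Large differences without a name, probe sets of the gene lists that are no members, and 1 transcript known only by its match in Arabidopsis, were added after their values were seen.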

Additional observations from a re-analysis of the deposited data

How the results depend on the processing

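Of the 18 other settings of the rule, those that changed its count of 175 by over 1.5 times gave 114 probe sets with a common median, 105 with a minimum of 8 at 0 SD, 98 with a window of 0.3, and 420 and 56 with a limit of 0.6 and of 1. Leaving out 1 array gave 78 to 1340. As the rule fixes the sign of the members' differences in most settings, only their size is given. The median difference was −1.22 to −0.68 with an array of 4 or 6 SD left out, and at −0.65 with the actin covariate and −0.76 with this covariate against the mean of the earlier time points. The 187 values of the 17 named members under 11 settings ranged from −1.66 to −0.45.

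The count of 16 that fell at 6 against 4 SD became 9 with an intensity trend and a robust prior, 61 with a replicate block (31 of them members), 2 with array weights, 529 against the mean of the earlier time points and 0 with the actin covariate, and 0 to 1490 with 1 array left out. The count of 84 that rose became 179 with no filter, 155 with a common median, 211 with the replicate block, 10 with array weights, 766 against the earlier mean and 0 with the actin covariate, and 0 to 617 with 1 array left out. For the other probe sets of the members' genes, 4 fell against the earlier mean, and 0 to 5 with 1 array left out, the 5 being without 6 SD replicate A. The letters A and B are not known to pair the arrays: across probe sets, the difference of replicate A minus B at 1 SD had correlations of −0.368 to −0.074 with that at the other time points, which ranged over 0.193 to 0.618 among themselves. Apart from the smaller groups in these left-out fits, the cause of these changes was not tested. Letters in promoters were not searched, as no sequences were used here.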

Other observations

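Added control transcripts differed between arrays, and both kinds were lower on both 4 SD arrays than on all others. The mean log2 value of the bacterial poly-A controls, which are added to the RNA, was 8.52 and 10.30 at 0 SD, 8.49 and 9.43 at 1 SD, 9.38 and 10.93 at 2 SD, 8.22 and 8.03 at 4 SD and 8.82 and 9.54 at 6 SD. The hybridization controls averaged 11.49 on 6 SD replicate B, against 10.32 to 11.13 on the other 9 arrays. They averaged 10.32 and 10.48 at 4 SD, and 10.71 on 6 SD replicate A. Both kinds were thus higher on both 6 SD arrays than on both 4 SD arrays. The part of these control differences in the levels of the members was not tested.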
